A study of Homo sapiens with 2 samples.

Results

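The genes described here encode the chaperones of the endoplasmic reticulum (ER), the stress sensors of its membrane, its disulfide isomerases and the factors of ER-associated degradation (ERAD). They were chosen by gene symbol for their function, by a rule that uses no measured value but was written with earlier results of these data known. Of 37 symbols chosen, 36 were found among the 16424 listed genes, and DERL3 was not analysed here. All 36 had a mean of at least 10 CPM over both libraries and so passed the filter on low values, which was a mean of at least 1 CPM and left 13724 genes.

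The cells were PLC/PRF/5, an established human hepatoma line. They were grown until subconfluent and then kept for 6 h in medium without an addition (non-treated, 1 library) or with 3 µg/ml M2BPGi (M2BPGi-treated, 1 library). M2BPGi is a glycosylated form of Mac-2-binding protein that serves as a serum marker of liver fibrosis, and the comparison asks which transcripts differ in hepatoma cells exposed to it. Transcripts were measured by CAGE, which reads a short tag from the 5′ end of each capped RNA.

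The deposited unit is CPM, the tags of a gene relative to all tags of its library. One tag is counted per RNA end whatever the length of the transcript, so levels of different genes are given here in CPM without a correction for length. The CPM steps gave 24040209 tags in the non-treated and 24862941 tags in the M2BPGi-treated library. One tag was thus worth 0.0416 and 0.0402 CPM. Each condition had 1 library, so the differences have no replicate check and no test of the treatment was possible. In RNA of a whole culture, fewer cells of a type and less RNA per cell cannot be told apart.

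Marker genes were read first to check the cell label. Of 14 markers of hepatoma cells, 14 were listed and had a mean of at least 1 CPM. Their summed level was 4791 CPM without and 4442 CPM with M2BPGi, and KRT18 was the most abundant gene. Of the 14, 9 were lower and 5 higher with M2BPGi, against 57.0% and 42.9% of the 13724 genes tested. KRT18, a keratin of epithelial cells, had 1249.8 and 1592 CPM, AFP, the fetal liver protein, 695 and 566 CPM, and FGB, a fibrinogen chain, 950.0 and 623 CPM. The part of these differences in the values of the ER genes was not tested. Of 7 markers of stellate cells and fibroblasts, 2 were listed, and they summed to 5.20 and 4.18 CPM, most of it COL3A1. Of 5 macrophage markers, 2 were listed (PTPRC and CSF1R), both at 0, which allows up to 0.125 and 0.121 CPM. Of 5 plasma cell markers, a cell type rich in ER chaperones, only SDC1 was listed, at 34.6 and 33.3 CPM, and none of 4 endothelial markers was analysed here.

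Secreted and membrane proteins fold in the ER, where hepatocytes handle a large load of plasma proteins. When unfolded proteins build up there, sensors in the ER membrane start the unfolded protein response. One sensor, IRE1 (gene ERN1), splices the mRNA of the transcription factor XBP1. Another, ATF6, is released from the membrane by proteases, and PERK (gene EIF2AK3) slows translation and raises ATF4. XBP1 and ATF6 switch on chaperones, disulfide isomerases and ERAD, which moves misfolded proteins out of the ER for destruction by the proteasome.

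ATF6 and XBP1 are known to act through short promoter elements, and these letters are shown for the genes that carry them, since those genes appear again in the results. The elements searched were the ER stress response element (ERSE, which is CCAAT and CCACG with 9 bases of any kind between them), ERSE-II (ATTGG and CCACG with 1 base of any kind between them) and the core of an XBP1 site (TGACGTGG). The CCAAT box alone was searched as well, and it lies within ERSE and, read on the other strand, within ERSE-II. Windows ran from 250 bases before to 50 bases after each RefSeq start (GRCh38.p14), and both strands were read. In the sequences below, written 5′ to 3′ along the strand of the gene, capitals mark the fixed letters of ERSE. HSPA5 is at chr9:125241361-125241439 (minus strand), CALR at chr19:12938359-12938432 (plus) and CRELD2 at chr22:49918524-49918602 (plus), each upstream of the start and with no annotated exon in the stretch. The other stretches overlap an annotated exon of some transcript and are given as the element alone. These are HSP90B1 at chr12:103930216-103930234 and chr12:103930321-103930339 (plus), CANX at chr5:179698778-179698796 (plus), PDIA6 at chr2:10812853-10812871 (minus) and XBP1 at chr22:28800603-28800621 (minus).
HSPA5: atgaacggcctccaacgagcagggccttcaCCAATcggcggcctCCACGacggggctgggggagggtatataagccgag
CALR: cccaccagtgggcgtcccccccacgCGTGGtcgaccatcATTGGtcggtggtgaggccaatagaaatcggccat
CRELD2: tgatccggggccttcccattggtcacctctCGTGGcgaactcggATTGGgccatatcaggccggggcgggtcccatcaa
HSP90B1, farther from the start: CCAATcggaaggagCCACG
HSP90B1, nearer to the start: CGTGGtgcggcgcgATTGG
CANX: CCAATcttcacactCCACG
PDIA6: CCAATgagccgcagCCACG
XBP1: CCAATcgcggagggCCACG

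ERSE-II was found in HYOU1, SDF2L1 and HERPUD1, and capitals mark its fixed letters. HYOU1, with a pair of elements, is at chr11:119057244-119057420 (minus strand) and SDF2L1 at chr22:21642084-21642154 (plus), both upstream of the start and without an annotated exon. The element of HERPUD1 at chr16:56932025-56932035 (plus) overlaps an annotated exon and is given alone.
HYOU1: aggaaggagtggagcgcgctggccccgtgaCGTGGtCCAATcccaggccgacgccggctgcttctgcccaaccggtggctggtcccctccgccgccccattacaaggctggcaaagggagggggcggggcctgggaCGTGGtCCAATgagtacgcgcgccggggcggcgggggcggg
SDF2L1: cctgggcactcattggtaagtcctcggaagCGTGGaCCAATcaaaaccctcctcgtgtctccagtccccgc
HERPUD1: ATTGGgCCACG

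In M2BPGi-treated cells, 33 of the 36 genes had a lower level than in non-treated cells, against 57.0% of the 13724 genes tested. Their summed level went from 14969 CPM without M2BPGi to 11511 CPM with it, a change of -23.1%. The 3 genes with a higher level in the treated library, a direction shared by 42.9% of all genes tested, were ERN1, MBTPS2 and ATF6, which all belong to the sensing arm. The chaperones, isomerases and ERAD factors were lower in every case, although the smallest of these differences, that of MANF, changed sign when the libraries were rescaled.

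Differences are given as log2 ratios, treated over non-treated, after adding 1 CPM to both values, which understates the change of weakly expressed genes. The median log2 ratio of the 36 genes was -0.34, with quartiles of -0.43 and -0.26, while the median of all genes tested was -0.05 with quartiles of -0.26 and 0.14. A total of 27 members were at least 1.2-fold lower, against 24.2% of all genes tested, and 1 was at least 1.2-fold higher, against 13.0%. At least 1.5-fold lower were 2 members, EDEM1 and EIF2AK3, against 4.04% of all genes, and 0 were 1.5-fold higher, against 1.6%. Both lay close to this threshold. After the libraries were rescaled or with trimmed-mean (TMM) factors, 0 members passed it. The same held with 5 CPM added in place of 1, or relative to genes of like transcript length. Relative to genes of like mean CPM, 2 members passed it, but these were CANX and DNAJC3. No member reached a 2-fold difference, which 0.43% of all genes did downwards and 0.24% upwards. The members thus differed by modest amounts and mostly in one direction.

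Counting error was small beside these differences. Its 95% interval was computed from the tags as an exact Clopper-Pearson interval of the ratio, without the added 1 CPM. It covers counting error only, not the spread between cultures. The interval lay below 0 for 32 members, against 31.5% of all genes tested, and above 0 for 1 member, against 22.8%. After rescaling or with TMM factors, which were applied to the intervals after seeing the data, 30 members had an interval below 0, since those of HERPUD1 and EDEM2 then included 0. The share of all genes tested was then 26.0% and 26.1%. Its median distance from the centre to either end was 0.07 on the log2 scale, and the widest was 0.20. For the summed tags of the members, 359848 and 286201, the log2 ratio was -0.38 with an interval from -0.39 to -0.37.

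Over all genes, the split into higher and lower depended on how the libraries were scaled. With CPM as deposited, 3323 genes were at least 1.2-fold lower and 1787 at least 1.2-fold higher. With the libraries rescaled to a median log2 ratio of 0 these counts were 2633 and 2394, and with TMM factors 2704 and 2340. At 1.5-fold they were 555 lower and 219 higher as deposited, 412 and 298 after rescaling, and 439 and 287 with TMM factors. Of the members, 32 were lower after rescaling, against 50% of all genes, and 32 with TMM factors, against 50.7%, and the member that changed sides was MANF. At least 1.2-fold lower were 22 members under either scaling, against 19.2% of all genes after rescaling and 19.7% with TMM factors.

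**Figure D1:**
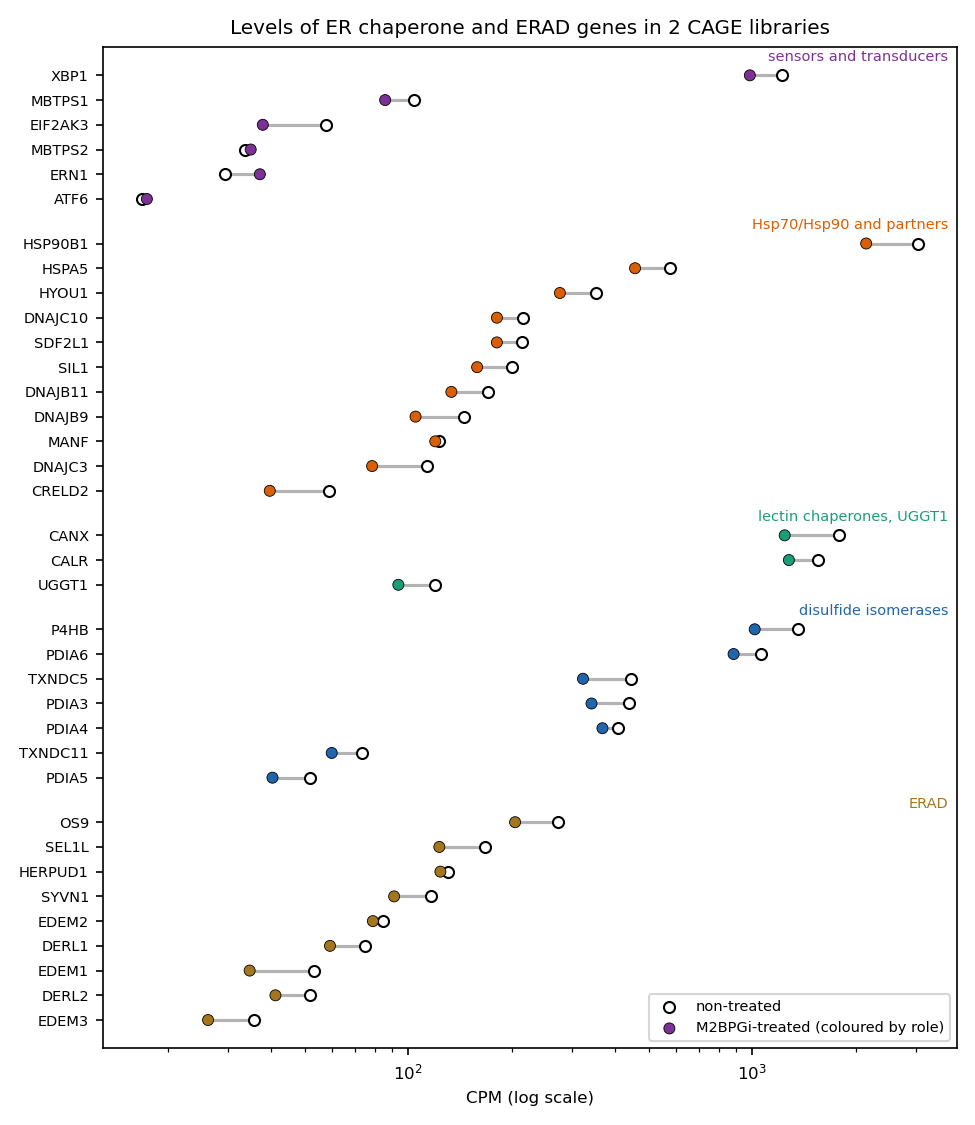
Levels of the 36 genes in CPM on a logarithmic axis, with an open circle for the non-treated library, a filled circle for the M2BPGi-treated library (1 library each) and genes grouped and coloured by role. The filled circle lies to the left of the open one for 33 genes, and to its right for ERN1, MBTPS2 and ATF6.

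The 6 genes of the sensing arm did not move as 1 group. EIF2AK3, which encodes PERK, had 57.6 CPM without and 37.8 CPM with M2BPGi, a log2 ratio of -0.60 (counting interval -0.73 to -0.49). ERN1, which encodes IRE1, had 29.2 and 37.0 CPM, a log2 ratio of 0.33 (0.20 to 0.48). ATF6 was the weakest member of the whole set, with 16.9 and 17.4 CPM, and its log2 ratio of 0.04 lay within counting error (-0.15 to 0.24). The sensors PERK and IRE1 therefore differed in opposite directions between these libraries, each by more than counting error, and a change of ATF6 was not detectable at this depth.

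XBP1 was by far the most abundant transcript of the sensing arm, with 83.5% of its summed CPM in non-treated cells. Its level was 1221 CPM without and 986 CPM with M2BPGi, a log2 ratio of -0.31 (-0.33 to -0.28). A tag from the 5′ end does not show whether an XBP1 mRNA was spliced by IRE1, so the active form was not measured. The proteases that release ATF6 in the Golgi differed from each other: MBTPS1, the site-1 protease, had 104 and 85.7 CPM, whereas MBTPS2, the site-2 protease, had 33.4 and 34.8 CPM. For MBTPS2 the log2 ratio was 0.06 (-0.08 to 0.20), within counting error. The median over the 6 genes was -0.12, with 3 lower and 3 higher, against 57.0% and 42.9% of all genes tested. At least 1.2-fold lower were 3 of them, against 24.2%, and 1 was at least 1.2-fold higher, against 13.0%. After rescaling or with TMM factors EIF2AK3 was the only 1 of the 3 that passed this threshold.

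The 11 chaperones of the Hsp70 and Hsp90 families and their partners were all lower in the treated library, from 5212 to 3878 CPM in sum. Their median log2 ratio was -0.35, and 8 of the 11 were at least 1.2-fold lower, against 24.2% of all genes tested. HSP90B1, the Hsp90 of the ER, was the most abundant member of the set and made up 20.3% of its non-treated sum. It had 3043 and 2148 CPM, a log2 ratio of -0.50 (-0.52 to -0.49). HSPA5 encodes BiP, the Hsp70 that binds unfolded chains and holds the sensors inactive. It had 576 and 457 CPM, a log2 ratio of -0.33 (-0.37 to -0.30). Between these libraries BiP thus differed by about the median of the set and HSP90B1 by more.

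BiP works with exchange factors that release its nucleotide and with J proteins that bring it substrates. The exchange factors were lower by similar amounts: HYOU1, a large relative of Hsp70, had 352 and 276 CPM, and SIL1 had 199.9 and 159 CPM. Among the J proteins, DNAJC3 had 113 and 78.5 CPM, a log2 ratio of -0.52 (-0.61 to -0.45). DNAJB9, which is also known to repress IRE1, had 145 and 105 CPM, a log2 ratio of -0.46 (-0.54 to -0.40). DNAJB11, which binds unfolded substrates directly, had 171 and 134 CPM. DNAJC10, a J protein that also reduces disulfide bonds before ERAD, had 215 and 181 CPM. SDF2L1, a partner of DNAJB11, had nearly the same values, 215 and 181 CPM. All 4 J proteins and both exchange factors were therefore lower, and DNAJC10 differed the least of the J proteins.

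The small secreted proteins CRELD2 and MANF, both known to be induced by ER stress, differed from each other. CRELD2 had 58.8 and 39.6 CPM, a log2 ratio of -0.56 (-0.69 to -0.45). MANF had 123 and 119.9 CPM, and its log2 ratio of -0.03 (-0.11 to 0.04) lay within counting error and turned positive after rescaling and with TMM factors.

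The lectin chaperones hold glycoproteins that carry a single glucose until they have folded. CANX, calnexin, is bound to the membrane and had 1794 and 1244 CPM, a log2 ratio of -0.53 (-0.55 to -0.51). CALR, calreticulin, its soluble relative, had 1559 and 1280.1 CPM. UGGT1 puts the glucose back on glycoproteins that are not yet folded, and had 119 and 93.6 CPM. All 3 were at least 1.2-fold lower, against 24.2% of all genes tested, with a median log2 ratio of -0.35. After rescaling or with TMM factors this held for 2 of them, without CALR, and relative to genes of like transcript length also for 2, without UGGT1. Calnexin exceeded calreticulin in non-treated cells, and the order was the reverse in the treated library.

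The 7 disulfide isomerases make and rearrange disulfide bonds, and all were lower, against 57.0% of all genes tested. Their median log2 ratio was -0.36. At least 1.2-fold lower were 6 of 7, against 24.2% of all genes tested. After rescaling or with TMM factors this held for 4 of 7, against 19.2% and 19.7%. TXNDC5 had 443 and 322 CPM, a log2 ratio of -0.46 (-0.50 to -0.42). P4HB, the classical isomerase and a subunit of collagen prolyl hydroxylase, had 1356 and 1018 CPM. PDIA6 had 1063 and 884 CPM. PDIA3, which works with calnexin and calreticulin on glycoproteins, had 438 and 341 CPM. These abundant isomerases were lower by unequal amounts, and the counting interval of PDIA6 (-0.29 to -0.24) did not overlap those of TXNDC5 and P4HB (-0.44 to -0.39). PDIA4 had 409 and 367 CPM, and its log2 ratio of -0.15 was the smallest difference of the group. At lower levels, PDIA5 had 51.9 and 40.3 CPM, and TXNDC11, a thioredoxin-like membrane protein, had 73.2 and 59.9 CPM.

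Of the 10 ERAD genes chosen, 9 were listed, and all 9 were lower, against 57.0% of all genes tested. Their median log2 ratio was -0.36, and 7 of 9 were at least 1.2-fold lower, against 24.2%. EDEM1, which marks misfolded glycoproteins for disposal by trimming their mannoses, had the lowest log2 ratio of the ERAD members. It had 53.1 and 34.6 CPM, a log2 ratio of -0.60 (-0.74 to -0.49), within counting error of that of EIF2AK3. Its relative EDEM3 had 35.7 and 26.2 CPM. The other relative, EDEM2, had 84.3 and 79.0 CPM, a smaller difference with a log2 ratio of -0.09. The EDEM genes thus spanned most of the range seen among ERAD genes.

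The core of the ERAD machine is the ubiquitin ligase HRD1 (gene SYVN1) with its adaptor SEL1L. SEL1L had 167 and 123 CPM, and SYVN1 had 117 and 91.0 CPM. OS9, a lectin that hands trimmed glycoproteins to SEL1L, was the most abundant of the 9 ERAD members, with 272 and 205 CPM. The derlins form part of the channel through which substrates leave the ER. DERL1 had 75.1 and 59.2 CPM, and DERL2 had 51.9 and 41.1 CPM. HERPUD1, which assembles with HRD1 and is itself strongly induced by ER stress, had 131 and 124 CPM, a log2 ratio of -0.07. Of the ERAD genes, HERPUD1 and EDEM2 were the ones less than 1.2-fold lower.

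**Figure D2:**
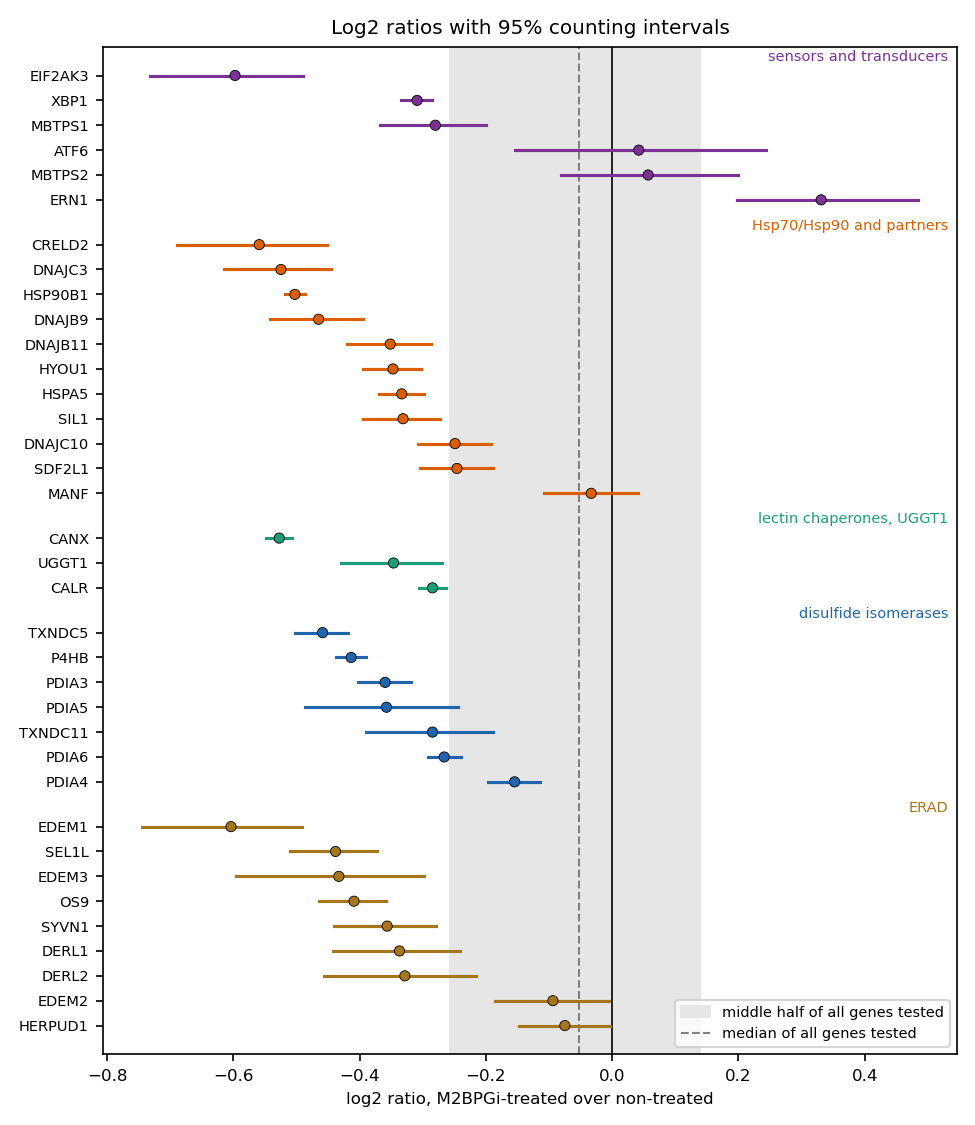
Log2 ratio of each member, M2BPGi-treated over non-treated with 1 CPM added, as a point with a line for its 95% counting interval (tag ratio, 1 library per condition), grouped and coloured by role. The grey band spans the quartiles of the 13724 genes tested (-0.26 to 0.14), the broken line is their median (-0.05), and 27 of 36 points lie below the band.

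The median difference was similar for members of high and low abundance, but the weaker members were less uniform. In non-treated cells, 24 of the 36 had at least 100 CPM, and 6 had at least 1000 CPM (HSP90B1, CANX, CALR, P4HB, XBP1 and PDIA6). These 6 made up 67.1% of the summed level. Among the 12 members with a mean of at least 200 CPM, the median log2 ratio was -0.35, while the 895 genes in that range had a median of 0.13. All 12 lay below the lower quartile of the genes of that range, which was -0.15. Among the 15 members with a mean of 50 to 200 CPM the median was -0.33, against 0.02 for 2794 genes, and 12 of the 15 lay below the lower quartile of that range. Among the 9 members with 10 to 50 CPM it was -0.36, against -0.07 for 5775 genes. Of these 9, 6 were lower and lay below the lower quartile of their range, while ERN1, MBTPS2 and ATF6 were higher, so that the values ran from -0.60 to 0.33. Abundant genes as a whole therefore had somewhat higher ratios than weak genes, and the members did not show this trend. Across genes, which are not independent replicates, Spearman's rho between mean CPM and log2 ratio was 0.17 over all genes tested and -0.13 over the 36 members.

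The SD of the log2 ratio was 0.20 over the 36 members, 0.35 over all genes tested and 0.34 over the 9464 genes that, like the members, had a mean of at least 10 CPM. These SDs were not compared by a test. Of the members, 27 lay below the lower quartile of all genes tested, 9 lay below their lower decile of -0.43, and 1, ERN1, lay above the upper quartile.

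Log2 ratios fell with transcript length over all genes. Of the genes tested, 13271 had a length in the annotation, and they were split into 5 groups of equal size by their longest transcript. The median log2 ratio was 0.04 in the group of the shortest transcripts and -0.12 in the group of the longest. The members' medians from the shortest to the longest group were -0.14 (2 members), -0.32 (8), -0.38 (8), -0.34 (10) and -0.39 (8). In each of the 5 groups the members' median was thus lower than that of the group. The part of transcript length in the members' values was not tested beyond this split and the adjusted median among the alternatives.

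**Figure D3:**
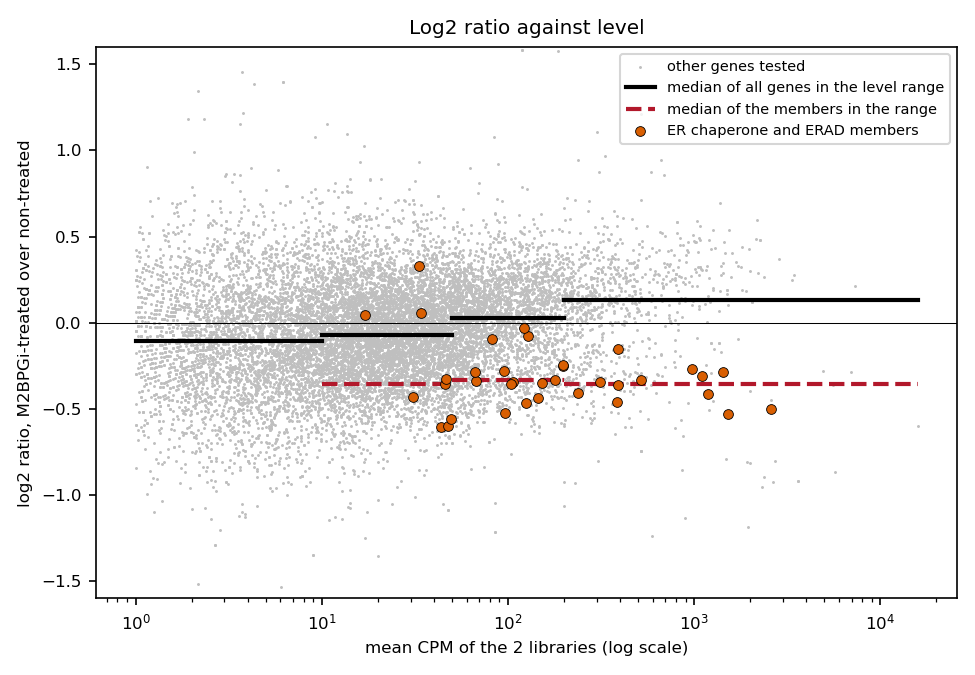
Log2 ratio (M2BPGi-treated over non-treated) against the mean CPM of both libraries on a logarithmic axis, with 1 point per gene, members in orange and other tested genes in grey; 32 other genes lie outside the plotted range. Black lines are medians of all genes and broken red lines medians of members in each range of mean CPM: at 200 CPM or more they stand at 0.13 and -0.35.

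The promoter elements printed above were more frequent in the set, whose symbols were chosen partly as known targets of XBP1 and ATF6. Of 37 symbols, 34 were matched to a RefSeq window, and DERL1, PDIA3 and DERL3 were not. ERSE was found in 7 of 34 members (20.6%), in 0.162% of the 9880 tested genes with a window and in 0.0769% of all 35116 windows. ERSE-II was found in 3 members (8.82%), in 0.142% of tested genes and in 0.0541% of all windows. The XBP1 core was found in 4 members (11.8%), in 1.2% of tested genes and in 0.729% of all windows. These were DNAJC10, TXNDC5, TXNDC11, where it lies after the start, and HYOU1, where it overlaps an ERSE-II. The CCAAT box alone was common, with 76.5% of members, 43.6% of tested genes and 34.6% of all windows. A match describes the letters of the window and does not show that a factor binds there. Only exact matches were counted, so a gene without a match may still carry a variant of the element.

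Members with and without ERSE or ERSE-II had similar median ratios, and the difference was not tested. Those without include DNAJC10, TXNDC5 and TXNDC11, which carry the XBP1 core. The 10 members with ERSE or ERSE-II had a median log2 ratio of -0.32, from -0.56 (CRELD2) to -0.07 (HERPUD1), and all 10 were lower. The 24 members with neither had a median of -0.35, from -0.60 (EDEM1) to 0.33 (ERN1), and 21 were lower. At least 1.2-fold lower were 8 of the 10 and 17 of the 24, against 24.2% of all genes tested. After rescaling or with TMM factors these counts were 5 of the 10 and 15 of the 24, so the order of the shares depends on the scaling. The elements also differed in number and in distance from the start. The ERSE of XBP1 begins 52 bases before the start and that of HSPA5 66 bases before it, while the ERSE of CALR begins 225 bases before it. HSP90B1 has 2 of them, beginning 194 and 89 bases before the start.

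Other genes of the pathway were read from lists written by hand, and the lowest and highest genes named are those with a mean of at least 10 CPM. Of 35 symbols for other ER folding factors, 30 were tested, with a median log2 ratio of -0.34. Of these, 29 were lower, against 57.0% of all genes tested, and 20 were at least 1.2-fold lower, against 24.2%. Lowest were QSOX1 (a sulfhydryl oxidase, -0.55), TMX3 (a membrane isomerase, -0.52) and FKBP7 (a prolyl isomerase, -0.51). Highest were SERPINH1 (the collagen chaperone, 0.06), TXNDC12 (-0.08) and PPIC (-0.11). These folding factors share no gene with the 36 members, and no test of the lists against each other was made. Of 27 symbols for other ERAD factors, 23 were tested, with a median of -0.28. Lower were 18, against 57.0% of all genes tested, and 5 were higher, against 42.9%. At least 1.2-fold lower were 13, against 24.2%. RNF5, a ubiquitin ligase, was lowest (-0.67), with FAM8A1 and MAN1B1 next (both -0.53), and UBE2J1, a ubiquitin-conjugating enzyme, was highest (0.17), followed by NGLY1 (0.13) and AUP1 (0.08).

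Most genes of the PERK and ATF4 arm went the other way. Of 14 genes, 12 were higher, against 42.9% of all genes tested, and 2 lower. The median log2 ratio was 0.36, and 10 were at least 1.2-fold higher, against 13.0% of all genes tested. The counting interval lay above 0 for 10 genes, against 22.8%, and below 0 for 2, against 31.5%. The summed level of the 14 genes was 940.4 CPM without and 1257 CPM with M2BPGi. TRIB3, a pseudokinase induced by ATF4, had 22.6 and 44.0 CPM, a log2 ratio of 0.93 (counting interval 0.81 to 1.11). ATF5 had a log2 ratio of 0.76 and CHAC1, a glutathione-degrading enzyme, of 0.66. Lowest were PPP1R15B (-0.49) and PPP1R15A (-0.27), which encode subunits of the phosphatase that reverses the action of PERK, and then SESN2 (0.11). Most transcripts of the ATF4 arm were therefore higher in the library in which EIF2AK3 itself and the chaperones were lower. The activity of PERK was not measured, and its part in these values was not tested. Of 12 symbols for relatives of ATF6 and other stress transducers, 7 passed the filter, with a median of -0.31. Lower were 6 of these 7, against 57.0% of all genes tested. ATF6B, the closest relative of ATF6, had 50.5 and 37.5 CPM (-0.42), WFS1 had a log2 ratio of -0.32 and TMBIM6 of -0.31, while CREB3 (0.03) and CREB3L2 (-0.19) were highest among those with a mean of at least 10 CPM.

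Lists of neighbouring machinery held genes that were lower and genes that were higher. Of all genes tested, 57.0% were lower and 42.9% higher. Of 11 oligosaccharyltransferase genes, whose products attach glycans to new chains, 8 were lower and 3 higher, with a median of -0.20. They ran from TUSC3 (-0.55), STT3B (-0.39) and RPN2 (-0.37) to KRTCAP2 (0.15), OSTC (0.24) and OST4 (0.31). Of 41 genes of ER translocation and vesicle coats, 30 were lower and 11 higher, with a median of -0.13, and 12 were at least 1.2-fold lower (29.3%, against 24.2% of all genes tested). Among those with a mean of at least 10 CPM, SRPRB, a subunit of the signal recognition particle receptor, was lowest (-0.57), followed by the cargo receptor LMAN1 (-0.49) and KDELR1 (-0.47), the receptor that returns chaperones to the ER. Highest were the coat protein SEC13 (0.34), SAR1B (0.22) and COPZ1 (0.17).

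The chaperones of the cytosol served as a set outside the ER. Of 29 genes, 13 were lower and 16 higher, against 57.0% and 42.9% of all genes tested. Their median of 0.03 fell just below 0 when each gene was compared with genes of like mean CPM. HSPA1B (-0.40), HSPA1A (-0.37) and DNAJB4 (-0.34) were lowest. CCT8 (0.60) and CCT7 (0.55), subunits of the ring-shaped TRiC chaperonin, and HSPB1 (0.47), a small heat shock protein, were highest. No test of this list against the ER chaperones was made.

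**Figure D4:**
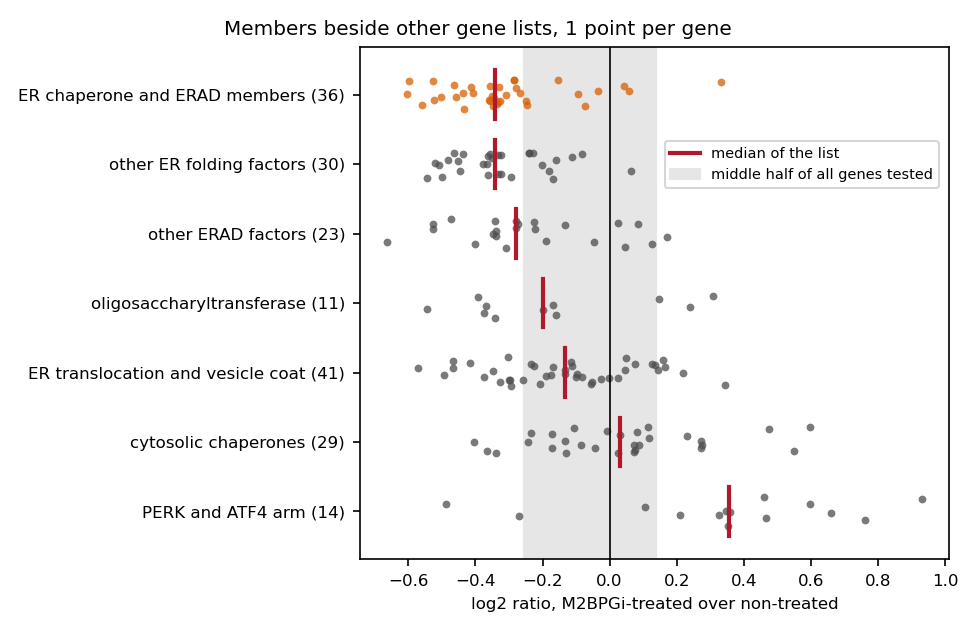
Log2 ratio (M2BPGi-treated over non-treated) on the horizontal axis for the 36 members and 6 other gene lists, with 1 point per gene, the number of genes in brackets, a red line at each median and a grey band over the quartiles of all genes tested (vertical scatter within a list carries no value). The median is -0.34 for the members and for the other ER folding factors, and 0.36 for the PERK and ATF4 arm.

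Tags from near-identical copies could be assigned to either gene, since how such tags were treated is not given in the sources used here. Of the 36 members, 4 had a match in another gene over at least 100 nt of their first 500 nt at 95% identity or more. The whole transcript of the other gene was searched. A match therefore need not lie at the 5′ end of that transcript, from which CAGE tags are read. HSP90B1 matched the pseudogene HSP90B2P (95.5% over 314 nt), which had 29.9 and 20.2 CPM. PDIA3 matched PDIA3P (96.3% over 427 nt), with 7.40 and 4.95 CPM. CANX shared a stretch of about 124 nt with many unrelated genes of various levels. One of them, RPS20, a ribosomal protein gene (95.2% over 125 nt), had 1406 and 1602 CPM, a level like that of CANX and a difference in the other direction. Whether tags of RPS20 or of CANX fall in the shared stretch was not checked. PDIA5 had short matches in SLC25A18 and in PHKG2 (96.1% over 102 nt), which had 23.6 and 20.6 CPM beside the 51.9 and 40.3 CPM of PDIA5. Overlapping genes that share transcript sequence were found for HSP90B1 (MIR3652), PDIA5 (SEC22A), SYVN1 (FAU) and TXNDC5 (BLOC1S5-TXNDC5), whose values are uncertain to that extent. Without the members with a copy, the median log2 ratio of the remaining 32 was -0.33.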

How the data were processed

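CAGE libraries of non-treated and M2BPGi-treated PLC/PRF/5 cells were analysed from CPM values per gene that the authors deposited, rounded to 2 decimals. Per the methods and the submitters' processing notes, ribosomal tags and tags with undetermined bases were discarded, tags were mapped with BWA, and their 5′ ends were clustered with CAGEr; HISAT2 and hg19 are named as well. The methods also name a mouse genome, whereas the symbols are human. The rule by which a tag was given to a gene is not given in the sources used here.

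Tag totals were taken as the smallest totals for which 100% of values were whole multiples of 1 tag within 0.005 CPM. Of all tags, 22630317 and 23471991 were on listed genes. Log2 ratios used a pseudocount of 1 CPM and a mean of at least 1 CPM, and fold thresholds of 1.2, 1.5 and 2 were read on that scale. The intervals, tag totals and medians were checked on simulated data. Members and lists were chosen with earlier results of these data known. Every listed member is named with both values; log2 ratios with intervals are given for the sensors, XBP1, HSPA5, the 8 lowest and the 4 highest members with a mean of at least 10 CPM, and per list at most the 3 lowest and 3 highest genes with such a mean are named. Other values of members and of marker genes were named after they were seen. Copies were searched in GENCODE v29 with BLAST+ 2.17.0, and promoters come from RefSeq. Python 3.11.15, numpy 2.4.6, pandas 2.3.3, scipy 1.17.1 and matplotlib 3.10.9 were used. Alternatives were other pseudocounts (0.1 and 5 CPM), filters and scalings, an adjustment for mean CPM or transcript length and, added after seeing the data, members without copies or shared sequence and rescaled intervals. Protein features were planned and not computed, since no protein sequences were used here.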

Additional observations from a re-analysis of the deposited data

How the results depend on the processing

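The median log2 ratio of the members ranged from -0.40, relative to genes of like mean CPM, to -0.28, relative to genes of like transcript length. It was -0.29 after rescaling and -0.29 with TMM factors. Lower members numbered 32 or 33 of 36, against 50% to 57.0% of all genes, and at least 1.2-fold lower were 22 to 28, against 16.0% to 26.7%. The number of members at least 1.5-fold lower, 2 as reported, was 0 with a pseudocount of 5 CPM and 0 after rescaling. It was also 0 with TMM factors and 0 relative to genes of like transcript length, and both members lie close to the threshold. Relative to genes of like mean CPM it was 2, but CANX and DNAJC3 (both -0.60) passed in place of EDEM1 (-0.57) and EIF2AK3 (-0.56). At a fold threshold of 2 in place of 1.5, 59 genes were lower and 33 higher, by construction fewer. Filters and left-out members cannot change the value of a single gene. Under the 6 alternatives that can, 53 of 216 values of single members moved beyond counting error, and MANF alone changed sign. Of 106 alternative values of list medians, including those from filters and left-out members, 15 moved beyond that error. They belonged to the Hsp70 and Hsp90 chaperones, the lectin chaperones, the disulfide isomerases and the oligosaccharyltransferase genes. Only the median of the cytosolic chaperones changed sign. Rescaling adds the same 0.05 to every log2 ratio, so under it a value moves wherever its counting error is smaller than that. The moves under the other alternatives were not examined further. With the members that share sequence left out, 27 of 30 were lower.

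No paired analysis was possible because there was only 1 library for non-treated and 1 for treated cells, and no library could be left out. A binomial test of tags and an exact count test with an assumed variation had been planned and were not run. Of values up to 20 tags, 87.6% and 94.1% lay within 0.1 tag of a whole number, too few for a stricter check of the tags read back; the rounding of CPM alone is worth 0.12 tag. The counting intervals and TMM factors rest on these tags. Depth limits ATF6 (405 and 432 tags) and MBTPS2 (804 and 866 tags), whose intervals are wide and span 0. The interval of MANF (2950 and 2981 tags) is narrower and spans 0 because its log2 ratio is small (-0.03). After rescaling or with TMM factors, the same holds for HERPUD1 and EDEM2, with ratios of -0.07 and -0.09 as deposited. Culture-to-culture spread is unknown for every gene.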

Other observations

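Outside the members, 20 tested genes carried ERSE or ERSE-II in the same promoter window. Of these, 13 were lower and 7 higher with M2BPGi, against 57.0% and 42.9% of all genes tested, and their median log2 ratio was -0.07. At least 1.2-fold lower were 4 and at least 1.2-fold higher 3, against 24.2% and 13.0% of all genes tested, so these shares were near those of genes in general. The 4 genes past this threshold downwards were FICD, which modifies BiP, with 13.7 and 10.1 CPM (-0.40), RAD9A (-0.34), ERO1LB, an ER oxidase (-0.33), and ALG12, a mannosyltransferase of glycan assembly (-0.32). The 3 past it upwards were SYNPO (0.33), RUVBL2 (0.34) and CAMTA1 (0.42). SERP1, which protects membrane proteins in ER stress, had 416 and 440.6 CPM (0.08). These genes were named after their values were seen. The 9826 tested genes with neither element had a median of -0.05.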
